A study of Mus musculus with 12 samples.

Results

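Collagens, laminins and the other building blocks of basement membranes were followed in the yolk sacs of mouse embryos with and without the Hypb gene, now named Setd2. The members were all measured genes whose symbol is that of a collagen chain, a laminin chain, a nidogen, perlecan (Hspg2) or Sparc. This gave 56 of the 18193 genes measured, of which 42 encode collagen chains and 10 encode laminin chains, and the others are Nid1, Nid2, Hspg2 and Sparc. All 56 entered every test, because no gene was left out for a low signal. On the log2 scale used here 27 members lay above the median gene's mean of 6.52 over the 12 arrays and 29 did not.

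The yolk sacs were taken from wild type (Hypb+/+) and knockout (Hypb-/-) embryos of the strain given as 129Sv/C57BL/6. The design text gives embryonic day 9.0 (E9.0) as a stage before severe defects are seen, and E10.5 as a stage of lethal defects. Each of the 4 groups (wild type and knockout at each stage) held 3 arrays, each array read a pool of 4 yolk sacs, and the labels give no other allele or treatment. Which part of the gene was deleted is not given in the sources used here, and no promoter or Cre is named.

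A basement membrane is a thin sheet of matrix under an epithelium or around a vessel. Laminin trimers of 1 alpha, 1 beta and 1 gamma chain assemble into a first network on the cell surface, type IV collagen forms a second network, and nidogens and perlecan link them. In the mouse yolk sac region, parietal endoderm cells lay down Reichert's membrane, a thick basement membrane rich in type IV collagen, laminin and Sparc. Visceral endoderm and the vessels of the visceral yolk sac have thinner ones. The mesoderm between them makes interstitial collagens such as types I, III, V and VI, which form fibrils and filaments.

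Setd2, which encodes a histone methyltransferase acting on transcribed genes, lay at 7.53 to 7.99 on the knockout arrays and 8.83 to 9.08 on the wild type arrays at E9.0. At E10.5 it lay at 7.77 to 8.07 and 8.66 to 8.77, so the genotypes did not overlap at either stage. The mean of 10 visceral endoderm markers, the lining of the yolk sac, lay between 12.51 and 12.67 on the E9.0 arrays. At E10.5 it lay at 12.62 to 12.72 in the wild type and 12.41 to 12.55 in the knockout, without overlap. Knockout replicate 3 at E9.0 stood apart for basement membrane genes, as described next. Members called between genotypes at E9.0 and the basement membrane genes described next are given with and without it. Other stage differences in the knockout are given with it. Control probe sets set replicate 3 of both genotypes apart from the other arrays at each stage. At E9.0 the BioC control exceeded BioB by 0.15 and 0.24 in these arrays against 1.7 to 1.86 in the others. At E10.5 the 3' minus 5' difference of the dap control was 1.85 and 1.87 against 1.23 to 1.44. A gene is called below where limma's adjusted p (Benjamini-Hochberg over all 18193 genes) was under 0.05.

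The chains of the main early laminin and collagen network varied widely between arrays of the same group at E9.0. A set of 7 genes is used for this description: the type IV collagen chains Col4a1 and Col4a2, the laminin chains Lama1, Lamb1 and Lamc1, the laminin-collagen linker Nid1, and Sparc, a collagen-binding matrix protein. The set was picked after the values were seen, so it carries no test. Stretches just upstream of the start of 3 of the 7 are shown because these genes differed together from array to array. They come from RefSeq windows of build GRCm38.p6 and end before the annotated start. Capitals mark matches on either strand to the GC box GGGCGG, the promoter box CCAAT, the TATA box as TATAAA or the GATA factor motif AGATAA. The Lamb1 stretch lies on chromosome 12 (31265043 to 31265145, plus strand), that of Nid1 on chromosome 13 (13437352 to 13437601, plus strand) and that of Sparc on chromosome 11 (55420081 to 55420330, minus strand).
Lamb1: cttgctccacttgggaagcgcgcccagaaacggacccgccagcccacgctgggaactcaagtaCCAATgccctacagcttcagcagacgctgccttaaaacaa
Nid1: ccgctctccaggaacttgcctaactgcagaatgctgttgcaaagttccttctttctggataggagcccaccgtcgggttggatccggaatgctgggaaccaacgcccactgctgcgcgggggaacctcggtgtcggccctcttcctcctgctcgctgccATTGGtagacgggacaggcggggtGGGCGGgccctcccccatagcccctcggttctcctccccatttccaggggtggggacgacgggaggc
Sparc: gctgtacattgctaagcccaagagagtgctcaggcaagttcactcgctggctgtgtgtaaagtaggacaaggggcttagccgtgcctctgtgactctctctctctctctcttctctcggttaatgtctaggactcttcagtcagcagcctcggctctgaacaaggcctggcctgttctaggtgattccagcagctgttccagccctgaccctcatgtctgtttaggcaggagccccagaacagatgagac
The Lamb1 stretch has a CCAAT match, the Nid1 stretch a CCAAT and a GC box match, and the Sparc stretch has none of the 4 motifs. Over the RefSeq windows of 300 bases, GGGCGG on either strand was present in 60.0% of 45 windows at 41 of the members and in 35.7% of all 32851 windows. CCAAT was present in 33.3% against 37.4%, TATAAA in 11.1% against 13.6% and AGATAA in 4.44% against 11.2%. These letters describe the windows and say nothing of which factor binds there. The annotated starts of Col4a1 and Col4a2 lie 21 bases from each other on opposite strands. Whether the transcripts overlap there was not determined.

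At E9.0 all 7 genes were highest of the 6 arrays in knockout replicate 3 and second highest in wild type replicate 1. Lama1, the laminin alpha chain of the earliest embryonic basement membranes, read 10.43, 9.17 and 8.7 in the wild type and 9.31, 9.12 and 11.86 in the knockout. Nid1 read 10.87, 9.88 and 9.4 in the wild type and 9.95, 9.82 and 11.67 in the knockout. Lamc1, the gamma chain shared by most laminins, read 9.85, 8.95 and 8.81 against 9.0, 9.13 and 11.03. In each of these 3 genes a single knockout array stood above every wild type array, and the other knockout arrays lay inside the wild type range. Col4a2 read 10.76, 10.02 and 10.07 in the wild type and 10.11, 10.22 and 11.83 in the knockout, and Col4a1 read 13.18, 12.5 and 12.74 against 12.67, 12.54 and 13.61. Lamb1 read 11.97, 11.46 and 11.05 against 11.56, 11.26 and 12.42, and Sparc read 12.15, 11.68 and 12.06 against 11.94, 11.95 and 13.12. Against the median of the other 5 arrays, knockout replicate 3 was higher by 0.94 (Col4a1, 1.92-fold) to 2.69 (Lama1, 6.45-fold) on the log2 scale. The standard deviation (SD) within the E9.0 knockout ran from 0.584 to 1.53 over the 7 genes, where the median gene had 0.127.

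**Figure D1:**
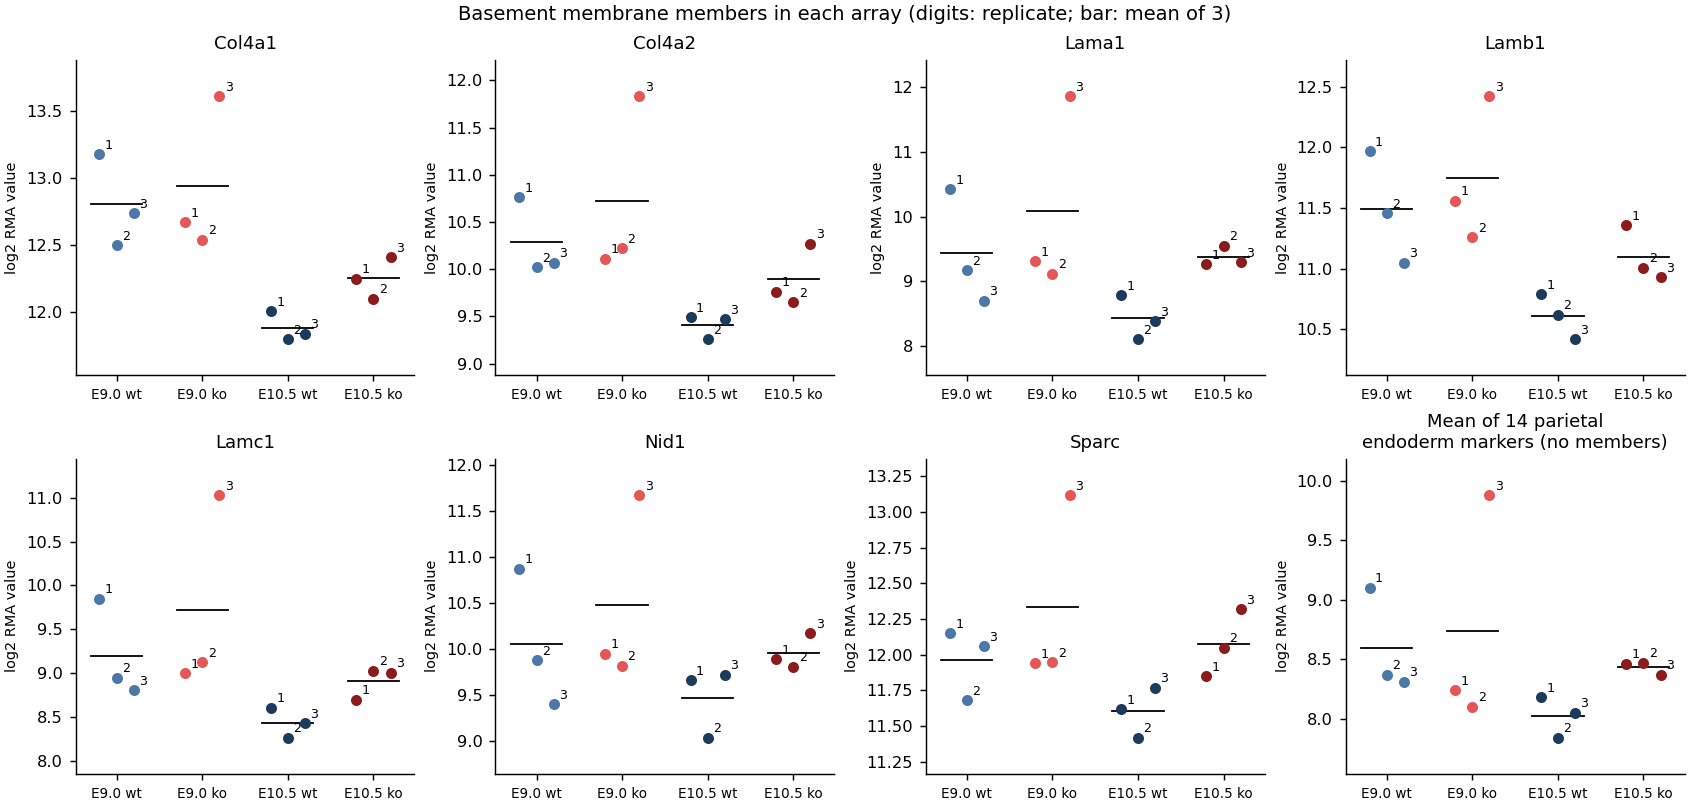
Log2 RMA values (y axis) of the 7 basement membrane genes on each of the 12 arrays, by stage and genotype (x axis), and the mean of 14 parietal endoderm markers, none a member. Digits give the replicate and bars the mean of 3 arrays; at E9.0 knockout replicate 3 is the highest point in every panel and wild type replicate 1 the second.

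Parietal endoderm markers that are no members had the same 2 arrays on top. The mean of the 14 genes was 9.1, 8.37 and 8.31 in the E9.0 wild type and 8.24, 8.1 and 9.88 in the E9.0 knockout. Of the 14, 11 were highest of the 6 arrays in knockout replicate 3, and 9 were second in wild type replicate 1. Fst, which encodes the activin inhibitor follistatin, read 11.25 in knockout replicate 3 and 9.71 in wild type replicate 1, against 5.78 to 8.02 on the other 4. Thbd (thrombomodulin) read 9.17 and 8.34 on these arrays against 6.76 to 7.49, and Tfpi and Lgmn, of the same list, were lowest in knockout replicate 3. The part of parietal endoderm in the values of the 7 genes was not tested. In pooled tissue, more cells of a type and more RNA per cell cannot be told apart.

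Some collagens were instead low in knockout replicate 3. Of the 56 members, 13 were highest of the 6 E9.0 arrays there and 11 were lowest, all 11 of them collagens, as are 42 of the 56. Some of the 11 were dim with narrow gaps, such as Col17a1 (3.05 against 3.06 to 3.43). Of the 11 fibrillar collagens 2 were lowest there and 1 (Col27a1) highest, and of the 9 fibril-associated collagens 4 were lowest and 1 (Col20a1) highest. The lowest included Col3a1 (11.46 against 11.69 to 12.62), the main chain of type III collagen, Col11a1 (7.07 against 7.37 to 8.65), Col6a3 (6.51 against 6.64 to 7.0) and Col14a1 (4.91 against 5.8 to 6.98). Wild type replicate 3 at E9.0 was highest for 23 members, and knockout replicate 3 at E10.5 was highest of its 6 arrays for 22. Wild type replicate 1 at E9.0 was lowest of its 6 arrays for 19. Such counts were not made over all genes, so they have no background to be set against. The map of members brighter than the median gene shows the values by array.

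**Figure D2:**
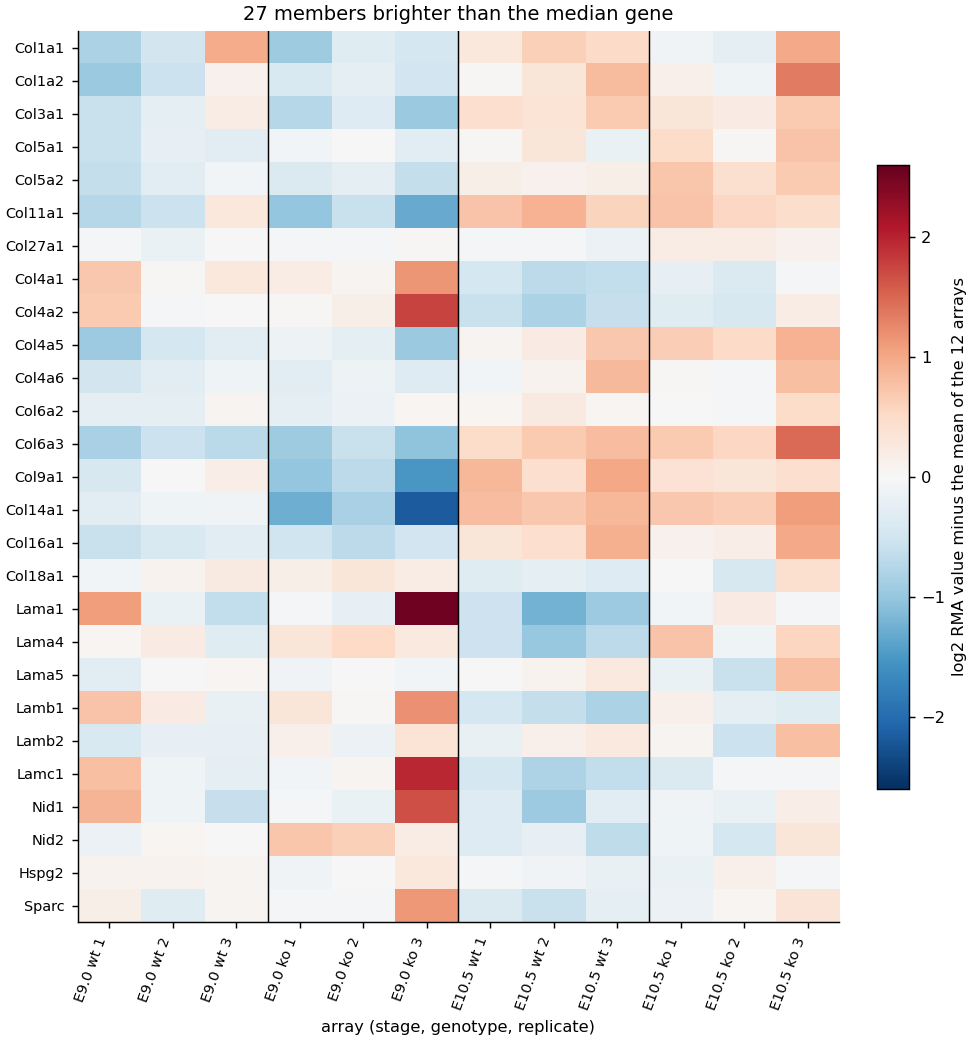
Log2 RMA values minus the mean of the 12 arrays (colour) for the 27 members brighter than the median gene (rows, ordered by role) on the 12 arrays (columns, by stage, genotype and replicate). The 7 basement membrane genes are darkest red in E9.0 knockout replicate 3, where Col9a1 and Col14a1 are darkest blue, and most fibrillar collagens are bluer at E9.0 than at E10.5.

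The first comparison asked which matrix genes differed between genotypes at E9.0, given as a stage before severe defects are seen. Of the 56 members 0 were called higher and 2 lower in the knockout, 3.57% of the members, where 1.18% of all genes were called (0.55% higher and 0.632% lower). Both encode collagens that sit on the surface of fibrils. At an unadjusted p under 0.05 limma gave 1 member higher and 6 lower, 12.5% of the members against 11.8% of all genes (5.49% higher and 6.33% lower). In 8 members, 14.3%, the 3 knockout arrays lay on 1 side of all 3 wild type arrays, against 18.0% of all genes. The median difference over the members was 0.02, and over all genes -0.0067.

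Col14a1, a fibril-associated collagen of mesenchyme, read 6.78, 6.97 and 6.98 in the wild type and 5.8, 6.24 and 4.91 in the knockout at E9.0. Every knockout array lay below every wild type array, and replicate 3 lay lowest. The log2 difference was -1.26 (SE 0.25; 2.39-fold lower; limma adjusted p = 0.033). Col9a1, a chain of type IX collagen, read 8.31, 8.74 and 8.9 in the wild type and 7.72, 8.06 and 7.22 in the knockout. The log2 difference was -0.98 (SE 0.21; 1.98-fold lower; limma adjusted p = 0.0453), again with no overlap. Within replicates 1 and 2 the differences were -0.85 (Col14a1, limma adjusted p = 0.0581) and -0.64 (Col9a1, limma adjusted p = 0.19), and in replicate 3 alone they were -2.07 and -1.68. Neither call held without knockout replicate 1 or 3 or without any 1 wild type array of E9.0; without each of the 12 arrays in turn Col14a1 stayed called in 5 fits and Col9a1 in 3. Over the 22 alternative settings the Col14a1 difference ran from -1.55 to -0.7 (adjusted p 0.00763 to 0.124) and that of Col9a1 from -1.18 to -0.64 (adjusted p 0.0256 to 0.19). Dimmer probe sets of Col14a1 gave -0.6 and -0.23 and the other probe set of Col9a1 gave -0.45, none called.

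The laminin and type IV collagen network was not called at E9.0. The differences of the 7 genes ran from 0.13 (Col4a1, SE 0.24) to 0.66 (Lama1, SE 0.59), and the lowest limma adjusted p among them was 0.669. Without knockout replicate 3 all 7 turned negative, at -0.22 to -0.018, and within replicates 1 and 2 they lay between -0.58 and 0.03. With wild type replicate 1 left out too they lay between -0.015 and 0.28. Nid2, the second nidogen, read 9.59, 9.79 and 9.75 in the wild type and 10.45, 10.35 and 9.93 in the knockout. These arrays did not overlap, but the difference of 0.53 (SE 0.19) had a limma adjusted p of 0.248. Perlecan read 8.51 to 8.52 in the wild type and 8.34 to 8.71 in the knockout, a difference of -0.023 (SE 0.11). The vessel laminin chain Lama4 differed by 0.38 (SE 0.21), Lama5 by 0.023 and Lamb2 by 0.38, and the multiplexins Col15a1 and Col18a1, which carry heparan or chondroitin sulphate chains at basement membranes, by -0.037 and 0.13, none called.

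Among interstitial collagens at E9.0, Col6a1, a chain of the filament-forming type VI collagen, lay at 5.85 to 6.32 in the wild type and 5.23 to 5.5 in the knockout. Its difference of -0.72 (SE 0.17) had a limma adjusted p of 0.0675, and it became a call (adjusted p = 0.0254) without E10.5 knockout replicate 3. Col6a2 differed by 0.017 and Col6a3 by -0.15. The type I chains Col1a1 and Col1a2 differed by -0.46 (SE 0.4) and 0.09 (SE 0.35), Col3a1 by -0.47 (SE 0.21), and the type V chains Col5a1 and Col5a2 by 0.25 and -0.09, none called. Of the 9 fibril-associated collagens 8 had a negative difference, with a median of -0.16, and of the 11 fibrillar collagens 5 did, with a median of 0.023.

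**Figure D3:**
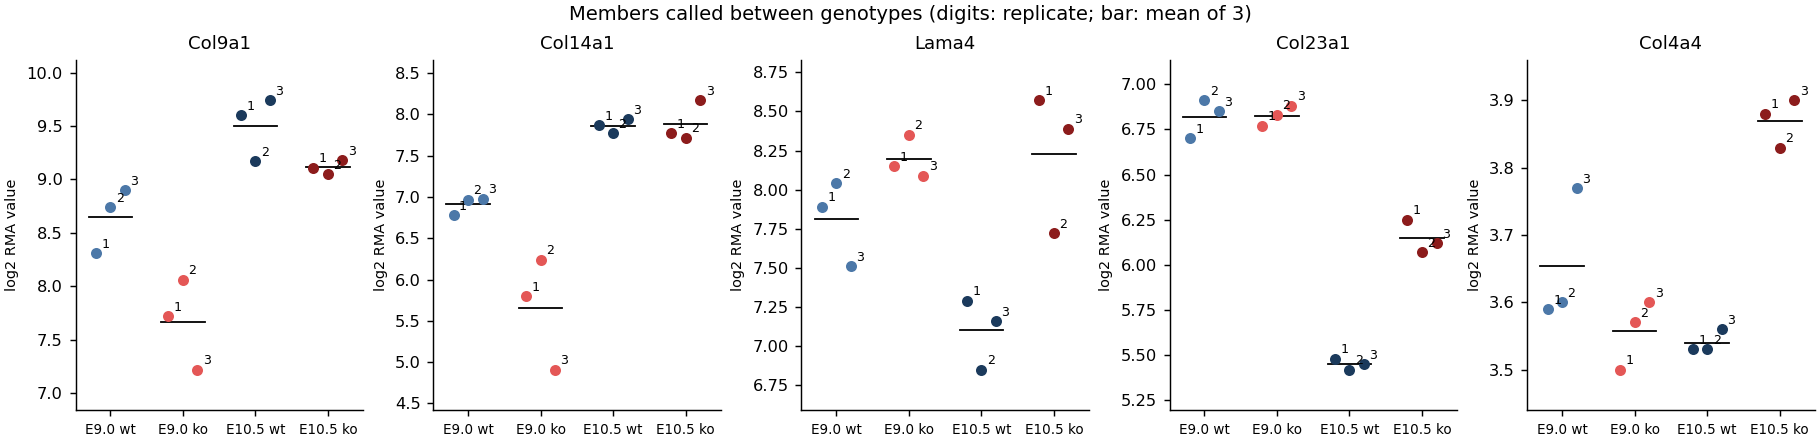
Log2 RMA values (y axis) on the 12 arrays, by stage and genotype (x axis), of the 5 members called between genotypes at either stage; digits give the replicate and bars the mean of 3 arrays. Col9a1 and Col14a1 are lowest in the E9.0 knockout, while Lama4, Col23a1 and Col4a4 differ between genotypes at E10.5.

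At E10.5, given as the stage of lethal defects, 3 members were called higher in the knockout and 0 lower. That is 5.36% of the members, where 7.28% of all genes were called (4.12% higher and 3.16% lower), so the share was near the background. At an unadjusted p under 0.05 limma gave 8 members higher and 3 lower, 19.6% of the members against 20.2% of all genes (10.3% higher and 9.92% lower). The genotypes did not overlap for 15 members, 26.8%, against 22.8% of all genes. The median difference was 0.053 over the members, 0.26 over the 27 brighter ones, and -0.013 over all genes.

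Lama4, the laminin alpha chain of endothelial and muscle basement membranes, read 7.29, 6.85 and 7.16 in the E10.5 wild type and 8.57, 7.72 and 8.39 in the knockout. The genotypes did not overlap. The log2 difference was 1.13 (SE 0.21; 2.18-fold higher; limma adjusted p = 0.006), and it was called in all 22 alternative settings, with values of 0.93 to 1.38. A dimmer probe set of Lama4 gave 0.73 (SE 0.16; limma adjusted p = 0.0215). Within replicates 1 and 2 the difference was 1.07 (limma adjusted p = 0.0404), and in replicate 3 alone it was 1.23.

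Col23a1, a transmembrane collagen, read 5.48, 5.42 and 5.45 in the E10.5 wild type and 6.25, 6.07 and 6.12 in the knockout. At E9.0 it had read 6.7 to 6.91 in the wild type and 6.77 to 6.88 in the knockout. Its other probe sets were lower in the E9.0 knockout, by -0.69 (SE 0.42) and -0.44 (SE 0.14) on the log2 scale, not called. The E10.5 difference was 0.7 (SE 0.09; 1.62-fold higher; limma adjusted p = 0.000677), and its other probe sets gave 0.69 and 0.3, not called. The call held in 20 of 21 settings and was lost at an adjusted p of 0.0516 with the mean of all its probe sets. Within replicates 1 and 2 the difference was 0.71, and in replicate 3 alone 0.67. Col4a4, a type IV chain of kidney and other specialised basement membranes, read 3.53, 3.53 and 3.56 against 3.88, 3.83 and 3.9. Its difference of 0.33 (SE 0.084; 1.26-fold; limma adjusted p = 0.033) came from a dim probe set and was lost in 10 of 21 settings, the others of the gene giving 0.093 and -0.11. Leaving out E10.5 knockout replicate 1 or 3, or any E10.5 wild type array, ended that call.

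The 7 genes of the main network were all higher on average in the E10.5 knockout, by 0.37 (Col4a1, SE 0.24) to 0.94 (Lama1, SE 0.59), and the knockout and wild type arrays overlapped in none of them. Lama1 read 8.79, 8.11 and 8.39 in the wild type and 9.27, 9.55 and 9.3 in the knockout. Lamc1 read 8.61, 8.27 and 8.43 against 8.7, 9.03 and 9.01, and Col4a2 read 9.49, 9.26 and 9.47 against 9.76, 9.65 and 10.27. None of the 7 was called (lowest limma adjusted p 0.361). In a fit of the E10.5 arrays only, 1 of the 7 was called, Lama1 (0.94, SE 0.18; adjusted p = 0.0255). In the fit without the 2 outlying E9.0 arrays, Lama1 (limma adjusted p = 0.0119), Lamc1 (0.48, adjusted p = 0.048) and the fibrillar chain Col5a2 (0.47, adjusted p = 0.029) were called. Those 2 arrays were singled out by the values of the same 7 genes. Leaving them out narrows the spread of these genes (Lama1 SE 0.18), so the Lama1 and Lamc1 calls there carry no test. Without knockout replicate 3 of E9.0 alone, none of the 7 was called at E10.5 (lowest limma adjusted p 0.0889). The 7 differences were positive in each of the 22 settings, which the lack of overlap fixes for those that only drop arrays.

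**Figure D4:**
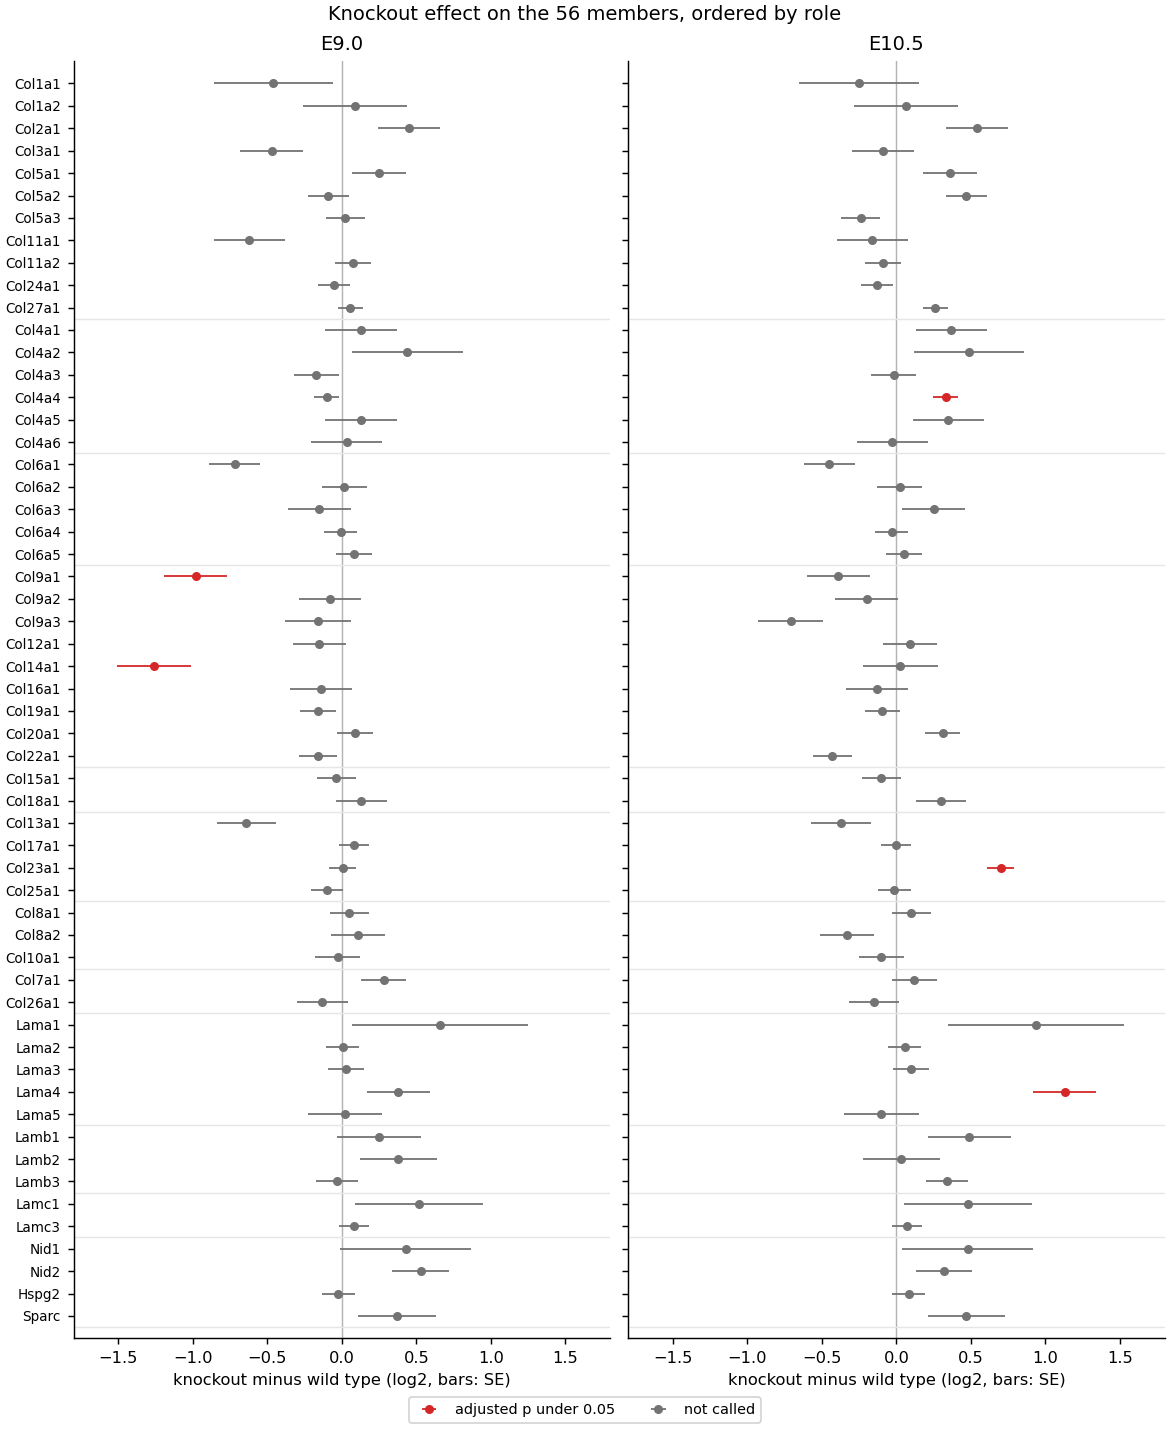
Knockout minus wild type on the log2 scale (x axis, bars are SE) at E9.0 and E10.5 for the 56 members (y axis, grouped by role between grey lines), with members whose adjusted p was under 0.05 in red. At E9.0 Col9a1 and Col14a1 are called lower; at E10.5 Lama4, Col23a1 and Col4a4 are called higher, and the bars of Lama1, Lamc1 and Nid1 are wide at both stages because the fit gives each gene 1 spread over all 12 arrays.

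Other cell type markers also differed between the E10.5 genotypes, and their part in these results was not tested. The mean of 12 endothelial markers lay at 7.31 to 7.63 in the wild type and 7.64 to 8.22 in the knockout; all 12 differences were positive and 2 were called, Pecam1 (0.86) and Robo4 (0.54). The mean of 14 mesothelium, mesenchyme and smooth muscle markers lay at 7.62 to 7.78 against 7.9 to 8.44, with 4 called higher (Tagln 1.02, Wt1 1.03, Acta2 0.76 and Vim 0.76). The 14 parietal endoderm markers averaged 7.84 to 8.18 against 8.37 to 8.47, with Ctla2a (1.25) and Krt19 (1.11) called. Genes of the embryo proper averaged 4.85 to 4.89 against 5.26 to 5.78. Of those 13 the heart genes Myl7 (3.21) and Tnnt2 (1.92) were called higher, while the cartilage genes Sox9 (0.25) and Acan (0.14) were not called. The trophoblast list peaked at 6.96 in knockout replicate 3, against 5.49 to 6.22 on the other E10.5 arrays, and Plac1 (1.05) was called higher in the knockout. Other lists had mostly negative or mixed differences. Of the 10 visceral endoderm markers 9 differences were negative, with a median of -0.21, and Cubn, an uptake receptor of this epithelium, was called lower (-0.36). All 7 differences of the primitive red cell list were negative, with a median of -0.2. Of 8 macrophage markers Csf1r (0.79), Cx3cr1 (0.65) and Tyrobp (0.48) were called higher and Fcgr3 (-1.82) lower. Of the cell type lists the macrophage list alone had calls between genotypes at E9.0, Cd68 (0.65) higher and Tyrobp (-0.61) lower.

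The other basement membrane members gave small differences at E10.5. Nid2 differed by 0.32 (SE 0.19), Hspg2 by 0.083 (SE 0.11), Lama5 by -0.1, Lamb2 by 0.033, Col15a1 by -0.1 and Col18a1 by 0.3 (SE 0.17), none called. Among interstitial collagens Col5a2 lay at 10.89 to 10.95 in the wild type and 11.21 to 11.5 in the knockout, a difference of 0.47 (SE 0.14, limma adjusted p = 0.0722). Its other probe set gave only 0.087 (SE 0.2, limma adjusted p = 0.886). Col5a1 differed by 0.36, Col1a1 by -0.25, Col1a2 by 0.067, Col3a1 by -0.09, Col6a1 by -0.45, Col6a2 by 0.023 and Col6a3 by 0.25, none called. The other probe sets of Col5a1 had the opposite sign, at -0.17 and -0.21. Col6a1 was called lower within replicates 1 and 2 (-0.69, limma adjusted p = 0.021) and without E10.5 knockout replicate 3 (-0.64, limma adjusted p = 0.0228). The dim Col22a1 differed by -0.43 (SE 0.13, limma adjusted p = 0.0619). It was called lower in some settings, such as replicate 3 as a batch block (limma adjusted p = 0.0193). Its other probe sets gave 0.013 and 0.36, not called. Col9a3, another type IX chain, read 5.88, 5.68 and 6.45 in the wild type and 5.4, 4.87 and 5.61 in the knockout. Its difference of -0.71 (SE 0.22) had a limma adjusted p of 0.0728, and it was called when replicate 3 was a batch block (adjusted p = 0.0204); a dimmer probe set gave -1.55 (adjusted p = 0.011).

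The difference between the genotype effects at the 2 stages was tested directly. Of the 56 members 0 were called in limma's test of this difference, where 0.187% of all genes were (0.104% higher and 0.0824% lower), and 5 had an unadjusted p under 0.05, all with a larger value at E10.5. That is 8.93% of the members against 8.3% of all genes (4.71% higher and 3.59% lower). Col23a1 was nearest, at 0.69 (SE 0.13; limma adjusted p = 0.0514), and it was called with replicate 3 as a batch block (adjusted p = 0.0435) and without E10.5 knockout replicate 2 (adjusted p = 0.0397). Col14a1 differed by 1.29 (SE 0.35; adjusted p = 0.224), Col4a4 by 0.43 (adjusted p = 0.231) and Lama4 by 0.74 (SE 0.29; adjusted p = 0.488). No member was called between genotypes at both stages, and for Lama4, Col9a1, Col14a1 and Col4a4 a call at a single stage does not show that the effect differed between stages.

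Stage gave more called members than genotype. In the wild type 13 members were called higher and 4 lower at E10.5 than at E9.0, 30.4% of the members against 22.2% of all genes (23.2% against 13.4% higher, 7.14% against 8.86% lower). In the knockout 14 were called higher and 2 lower, 28.6% against 23.6% of all genes (against 14.4% higher and 9.17% lower). The stages did not overlap for 28 members in the wild type, against 40.0% of all genes, and 22 in the knockout (39.3%, against 34.6%). These comparisons share no arrays. In both genotypes 12 of the 56 members were called higher, 1 lower and 0 in opposite directions. Of all 18193 genes 1683 were called higher in both, 1028 lower in both and 4 in opposite directions, so opposite calls were rare everywhere. Of the members 4 were called in the wild type alone and 3 in the knockout alone, and no member's difference between genotypes passed its own test. Of the 17 wild type calls, 7 held without each single array in turn: Col6a3, Col8a2, Col9a2, Col11a1, Col16a1, Col23a1 and Col26a1. The other 10 were all lost without wild type replicate 1 of E9.0, and some of them also without wild type replicate 2 of E9.0 or any 1 wild type array of E10.5. Of the 16 knockout calls, 12 held in this way, while Nid2, Col5a1, Col4a4 and Col26a1 were lost without knockout replicate 1 of E9.0, and Nid2 and Col5a1 also without several other arrays.

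The 12 members called higher in both genotypes were fibrillar, fibril-associated and filament-forming collagens, the type IV chain Col4a5, and Col26a1, a collagen outside these classes. Upstream stretches of 3 of them, Col3a1, Col6a3 and Col11a1, are shown because these members moved together with stage. They are RefSeq sequence of build GRCm38.p6 with the same 4 motifs in capitals. The stretches lie on chromosome 1 for Col3a1 (45311288 to 45311537, plus strand) and Col6a3 (90844002 to 90844221, minus strand) and on chromosome 3 for Col11a1 (114030290 to 114030478, plus strand).
Col3a1: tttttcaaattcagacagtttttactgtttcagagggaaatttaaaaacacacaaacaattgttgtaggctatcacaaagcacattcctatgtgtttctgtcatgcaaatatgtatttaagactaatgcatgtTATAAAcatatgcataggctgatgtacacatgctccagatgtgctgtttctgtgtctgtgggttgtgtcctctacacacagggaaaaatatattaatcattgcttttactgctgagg
Col6a3: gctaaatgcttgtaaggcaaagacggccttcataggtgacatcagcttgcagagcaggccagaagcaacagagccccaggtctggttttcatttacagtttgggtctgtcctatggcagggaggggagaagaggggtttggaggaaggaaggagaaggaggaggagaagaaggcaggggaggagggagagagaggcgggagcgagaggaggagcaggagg
Col11a1: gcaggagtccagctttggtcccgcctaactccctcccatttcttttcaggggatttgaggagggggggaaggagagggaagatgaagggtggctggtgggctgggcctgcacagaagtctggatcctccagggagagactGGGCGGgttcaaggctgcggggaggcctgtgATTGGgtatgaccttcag
Their letters differ: 35.2% of the Col3a1 bases are G or C, with a TATAAA match, against 56.4% for Col6a3, with none of the 4 motifs, and 60.3% for Col11a1, with a GC box and a CCAAT match.

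Col6a3, the long chain of type VI collagen, read 6.71, 7.0 and 6.87 at E9.0 and 8.03, 8.24 and 8.37 at E10.5 in the wild type. In the knockout it read 6.64, 6.98 and 6.51 and then 8.24, 8.11 and 9.04, and the stages overlapped in neither genotype. The rises were 1.35 (SE 0.21; 2.56-fold; limma adjusted p = 0.00072) and 1.75 (SE 0.21; 3.37-fold; limma adjusted p = 0.000127). Col6a1 rose by 0.64 and 0.9 in wild type and knockout, and Col6a2 differed by 0.25 in each, not called.

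Among the fibrillar collagens Col11a1, a minor chain that sets fibril diameter, read 7.63, 7.81 and 8.65 and then 9.11, 9.27 and 8.95 in the wild type, and 7.37, 7.79 and 7.07 and then 9.11, 8.91 and 8.83 in the knockout. It rose by 1.08 (SE 0.24; limma adjusted p = 0.00582) and 1.54 (SE 0.24; limma adjusted p = 0.000649), without overlap in either genotype. Col3a1 rose by 0.7 (SE 0.21) and 1.08 (SE 0.21), Col5a2 by 0.46 and 1.02, and Col2a1, best known from cartilage, by 0.88 and 0.98. Col5a1 rose by 0.53 in the knockout and differed by 0.42 in the wild type, where it was not called. By their brightest probe sets the type I chains were not called in either genotype. Col1a1 differed by 0.57 and 0.79 (SE 0.4 each) and Col1a2 by 0.86 and 0.84 (SE 0.35 each). A second bright Col1a2 probe set gave 0.87 in the wild type (limma adjusted p = 0.0504). In the knockout it was called at 1.01 (limma adjusted p = 0.026). A dimmer Col1a2 probe set was called in both, at 1.34 and 1.52. Of the 11 fibrillar collagens 10 had positive differences in each genotype, with medians of 0.46 and 0.79, and 4 were called higher in the wild type and 5 in the knockout.

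Of the 9 fibril-associated collagens 4 were called higher by their brightest probe set, the same 4 in each genotype. Col14a1 rose from 6.78 to 6.98 at E9.0 to 7.77 to 7.94 at E10.5 in the wild type, by 0.95 (SE 0.25; limma adjusted p = 0.016). In the knockout it rose from 4.91 to 6.24 up to 7.72 to 8.17, by 2.24 (SE 0.25, 4.71-fold, limma adjusted p = 8.46e-05), so at E10.5 the genotypes overlapped. The 4.91 is knockout replicate 3. Over the 22 settings, which include a fit without that array, this rise ran from 1.25 to 2.53 and stayed called. Col9a1 rose by 0.85 and 1.45, Col9a2 by 0.95 and 0.82, and Col16a1 by 0.97 and 0.98. The others were not called by their brightest probe set. In wild type and knockout Col9a3 differed by 0.56 and 0.013, Col12a1 by 0.23 and 0.47, Col19a1 by 0.04 and 0.11, Col20a1 by -0.21 and 0.013, and Col22a1 by -0.053 and -0.33. Dimmer probe sets were called higher for Col9a3 in the wild type (1.77, limma adjusted p = 0.00174) and Col12a1 in the knockout (1.47, limma adjusted p = 0.0354). Of the other collagens Col26a1 rose by 0.69 and 0.67 and Col4a5 by 0.9 and 1.12. Col8a2 rose by 0.83 in the wild type (0.39 in the knockout, not called). Col4a4 rose by 0.31 in the knockout (-0.11 in the wild type, not called). A dim second Col26a1 probe set gave -0.073 and -0.047 in wild type and knockout. That of Col4a5 gave 0.54 (not called) and 0.87 (called). Other Col4a4 probe sets gave 0.13 and -0.033 in the knockout, not called.

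**Figure D5:**
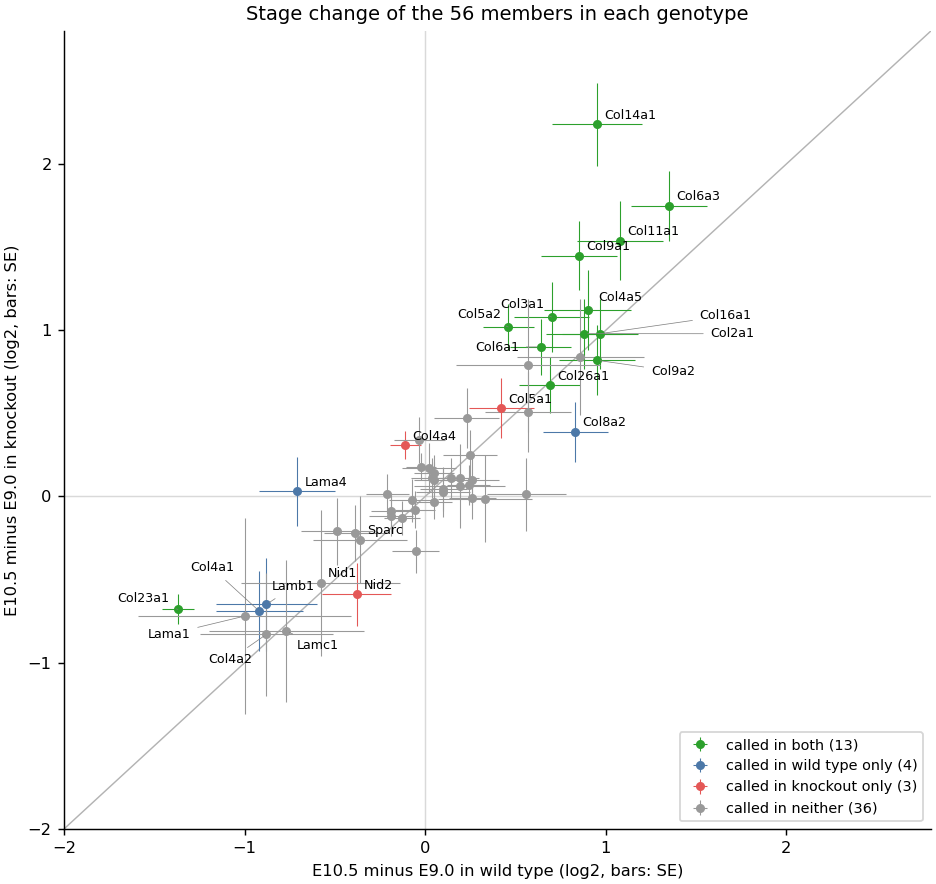
E10.5 minus E9.0 on the log2 scale in the wild type (x axis) and the knockout (y axis) for the 56 members, with SE bars and the line of equal values; colours mark members called in both genotypes (13), the wild type only (4), the knockout only (3) or neither (36). Col14a1, Col6a3 and Col11a1 lie at the upper right and the 7 basement membrane genes with Col23a1 at the lower left.

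The basement membrane core went down with stage or did not pass the test. In the wild type Col4a1 fell from 12.5 to 13.18 at E9.0 to 11.8 to 12.01 at E10.5, by 0.92 (SE 0.24; limma adjusted p = 0.0153). Lamb1 fell from 11.05 to 11.97 to 10.42 to 10.79, by 0.88 (SE 0.28, limma adjusted p = 0.0357), and Lama4 fell by 0.71 (SE 0.21, limma adjusted p = 0.0247). In the knockout Lama4 differed by 0.03 with stage, not called. Col23a1 fell by 1.37 (SE 0.09; 2.58-fold; limma adjusted p = 1.96e-06) in the wild type and by 0.68 (SE 0.09; limma adjusted p = 0.000253) in the knockout. Nid2 fell by 0.59 in the knockout (adjusted p = 0.0405) and differed by -0.38 in the wild type, not called. By their brightest probe sets all 7 network genes had negative differences, with medians of -0.88 in the wild type and -0.69 in the knockout. The latter rested on knockout replicate 3 of E9.0: without it the median was -0.15, with 3 of the 7 positive. Without wild type replicate 1 of E9.0 the wild type median was -0.5, and Col4a1 and Lamb1 were no longer called. A second bright Sparc probe set gave 0.053 in the wild type and 0.023 in the knockout, and a dimmer one -0.1 and 0.0067. The other Lamc1 probe set gave only -0.13 and -0.043. Other probe sets of Col4a1, Lamb1 and Nid1 were negative in both genotypes, and none was called. The other core members were not called: Hspg2 differed by -0.19 and -0.087, Lama5 by 0.19 and 0.063, Lamb2 by 0.33 and -0.013, Col15a1 by 0.1 and 0.043 and Col18a1 by -0.39 and -0.22.

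Lama2, Lama3, Lamb3 and Lamc3, laminin chains best known from muscle, skin and nerve, had ranges over the 12 arrays of 0.4 to 0.66 log2 units, and none was called in any comparison of this fit. By their brightest probe sets the collagens not named above were not called either. Their ranges ran from 0.34 (Col25a1) to 1.32 (Col4a6, which differed by 0.57 and 0.51 with stage in wild type and knockout). A dimmer Col4a6 probe set was called higher with stage in the wild type (0.74, limma adjusted p = 0.0075). So was a dimmer probe set of Col27a1 (0.57, limma adjusted p = 0.0174), whose brightest gave -0.023. Col13a1, a transmembrane collagen, read 6.23, 6.42 and 6.25 in the E9.0 wild type and 5.24, 5.67 and 6.06 in the E9.0 knockout. These arrays did not overlap, and the difference of -0.64 (SE 0.2) had a limma adjusted p of 0.155. The 4 members Col6a4, Col6a5, Col7a1 and Lamb2 lie within 10 Mb of Setd2, where sequence linked to the targeted allele can be carried along, and none was called between genotypes.

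Genes that process, join, bind and degrade these proteins were read beside them. Of 31 collagen processing genes 27 were measured. At E10.5 P4ha1, a prolyl hydroxylase subunit needed for stable collagen helices, was called higher in the knockout (9.74 to 10.08 against 8.94 to 9.11; 0.91, SE 0.15) and Plod1, a lysyl hydroxylase, lower (-0.87, SE 0.24). With stage 4 were called higher and 3 lower in the wild type and 5 and 2 in the knockout. The largest was Lox, the collagen cross-linking oxidase, at 5.92 to 6.25 and then 8.1 to 8.62 in the wild type (2.18, SE 0.26) and 1.85 in the knockout. Pcolce, an enhancer of procollagen cleavage, rose by 0.76 and 0.89, P3h3 by 1.15 and 1.01, and P3h2, a prolyl hydroxylase of basement membrane collagen, fell by 1.28 and 1.0. Pcolce2 (-0.57, wild type) and Adamts3 (-0.55 and -0.62) were called lower too.

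Of 32 other matrix genes 30 were measured, and at E10.5 4 were called higher in the knockout. These were Sparcl1, a Sparc relative (6.62 to 7.02 against 7.6 to 8.67; 1.27, SE 0.23), Efemp1 (0.86), Matn2 (0.84) and Smoc2 (0.79). With stage 8 rose and 2 fell in the wild type and 9 rose and 2 fell in the knockout. The proteoglycan Dcn, which coats collagen fibrils, rose by 1.97 and 2.19, Vtn by 2.2 and 3.02 and Postn by 1.25 and 1.96, while Smoc1 fell by 0.64 and 1.26. Sparcl1 rose by 0.74 and 2.2, Smoc2 fell by 0.82 in the wild type and Agrn, a heparan sulphate proteoglycan, by 0.63 in the knockout. Of 16 measured receptors Itga1, the collagen-binding integrin chain, was called higher in the E10.5 knockout (0.85, SE 0.15). The laminin receptors Dag1 (-0.65 and -0.71) and Itga3 (-0.53 and -0.51) fell with stage in both genotypes. Sdc4 (-1.2) and Ddr2 (-0.38) fell in the wild type and Itga1 (0.55) rose in the knockout. Of 20 measured genes of turnover Adamts5, a matrix protease, was lower in the knockout at both stages (-0.51 at E9.0, -1.02 at E10.5). Adamts4 (-0.7) was lower and the inhibitor Timp3 (0.76) higher at E10.5, and Timp1 rose with stage by 1.06 and 1.51, while Adamts9 (-0.7 and -0.58) and Adamts1 (-0.47 and -0.47) fell.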

How the data were processed

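Expression was measured on single-colour Affymetrix arrays in 12 pools of 4 yolk sacs, with cRNA made from 5 micrograms of total RNA, per the labels. The authors deposited RMA values on the log2 scale for 45101 probe sets, from 2.03 to 14.49 (the method per the submitters' processing notes, with no version there). RMA gives arrays a common distribution, carries no depth and compresses changes of dim probe sets; precision is set by how many arrays there are.

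No test used the 64 control probe sets. Through the platform annotation 34945 probe sets had 1 gene symbol, 932 several and 9160 no entry. Each gene with 1 symbol was read by its brightest probe set (18193 genes; 110 probe sets for the members; 36 members had more than 1), so values of different genes were not compared. In limma 3.58.1 (R 4.3.3) a model of 4 group means was fitted over the 12 arrays, with empirical Bayes (8 residual, 4.56 prior degrees of freedom), in 5 two-sided comparisons. SE is the standard error of a log2 difference. The fit was tested on simulated data for the E10.5 genotype comparison with 18193 genes: 24 of 67 genes changed by 0.5, 54 of 67 by 1 and 65 of 66 by 2 were recovered, with 3 false calls.

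Groups and replicate numbers came from the sample titles. The members, gene lists, tests and rules were chosen with earlier results of these data known. Named were all called members, a fixed core of basement membrane and interstitial chains, Setd2, and called members of each other list up to 6 per comparison, beyond that the 3 largest each way; other genes are said to be chosen after their values were seen, or are given by range. Fst, Thbd, Lgmn, Sox9, Acan, Col4a6, Col9a3, Col13a1, Col22a1, Col27a1 and the set of 7 were singled out in that way. Replicate 3 was taken as a technical batch from the control probe sets; the labels name none. Alternatives were 22 settings: other summaries, scalings, filters and blocks, and leaving out each array. Motif matches were counted on both strands in RefSeq windows from 250 bases before to 50 after each start. All 56 members matched the RefSeq gene table.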

Additional observations from a re-analysis of the deposited data

How the results depend on the processing

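No called member changed sign in any alternative. Of the 3 members called between genotypes at E10.5, 1 (Lama4) kept its call in every setting, as did 6 of 17 called with stage in the wild type and 10 of 16 in the knockout. At E9.0 the 2 calls between genotypes became 0 when only the groups compared were fitted, within replicates 1 and 2, and without both outlying E9.0 arrays (a setting added after the data were seen), and 1 with the mean of all probe sets or median centring. At E10.5 the 3 calls became 6 with replicate 3 as a batch block (4 higher and 2 lower). They became 5, all higher, without both outlying E9.0 arrays. Within replicates 1 and 2 there were 2 higher and 2 lower, and without E10.5 knockout replicate 3 there were 2 higher and 3 lower. With only genes brighter than the median 1 call was left, because that filter takes out Col23a1 and Col4a4 for their low signal. For the difference between stages the count of 0 became 1 with the batch block. With stage in the wild type the 17 calls became 11 with only brighter genes and 26 within replicates 1 and 2. The 11 are all the called members that the filter keeps, so that drop is no loss of a call. Without each array in turn the counts ran from 0 to 3 (genotype at E9.0), 2 to 5 (genotype at E10.5), 0 to 1 (difference), 7 to 19 (stage in the wild type, 7 without E9.0 wild type replicate 1) and 12 to 17 (stage in the knockout). Same-numbered arrays correlated at -0.0296 to 0.401 in their deviations from the group means, not all above 0.1, and not every array correlated best with its own number, so the numbers were not taken as pairs; with a replicate block the counts were 1, 6, 0, 19 and 17 in the order above. With 3 arrays a group, changes near 0.5 are often missed.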

Other observations

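Macrophage markers were higher at E10.5 in both genotypes: the mean of 8 genes lay at 6.06 to 6.32 on the E9.0 arrays and 7.33 to 7.58 on the E10.5 arrays. Of the 8, 7 rose in the wild type and 8 in the knockout, among them Tyrobp, a signalling adaptor (1.76 and 2.85), Fcgr3, an antibody receptor (2.24 and 1.3), Lyz2, lysozyme (1.39 and 2.1), and Csf1r, the receptor for macrophage colony stimulating factor (1.34 and 1.7). The mean of 7 primitive red cell genes lay at 11.08 to 11.57 at E9.0 and 10.47 to 11.22 at E10.5. Decidua markers, from the maternal tissue around the yolk sac, were highest in wild type replicate 1 at E9.0 (7.72 against 6.91 to 7.54 on the other E9.0 arrays). With stage in the wild type the endothelial markers Cdh5 (-0.92), Sox18 (-0.74), Tek (-0.7), Kdr (-0.65) and Eng (-0.4) fell and Emcn (0.78) rose, while in the knockout Emcn (1.34) and Pecam1 (0.77) rose. Of the mesothelium, mesenchyme and smooth muscle list Myl9 (1.86 and 1.43), Tagln (1.41 and 1.83) and Upk3b (1.15 and 1.38) rose in wild type and knockout, and Wt1 (0.99), Acta2 (0.62) and Vim (0.39) in the knockout. Of the parietal endoderm list Pth1r (-1.36 and -1.4) and Gata4 (-0.82 and -0.81) fell and Tfpi (0.82 and 0.76) rose in both genotypes, and Krt19 (0.92) rose in the knockout. Of the visceral endoderm list Hnf4a (-0.34 and -0.47) fell and Afp (0.37 and 0.33) rose in both, Apoa1 (0.26) rose in the wild type, and Amn (-0.73), Foxa2 (-0.66) and Cubn (-0.28) fell in the knockout. Gata1 fell in both (-0.72 and -1.29), Klf1 (-1.33) and Epor (-0.88) in the knockout, and Hand1 in both (-0.84 and -0.63). Bmp2 (-1.3) of the decidua list fell in the wild type, and Hand2 (0.45) of that list and Rhox6 (0.88) of the trophoblast list rose in the knockout. The heart genes Tnnt2 (-1.77) and Myl7 (-1.68) fell in the wild type, and Tnnt2 (1.18), Myl7 (2.57), Actc1 (2.82), Meox1 (0.38) and Matn1 (0.35) of the embryo list rose in the knockout. The difference between the genotype effects at the 2 stages was called for Tnnt2 (2.95, limma adjusted p = 0.0436) and Tyrobp (1.09, limma adjusted p = 0.0363).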
